A study of Mus musculus with 6 samples.

Results

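The Notch receptors, ligands and targets described here are 10 genes, taken from the 54532 mouse gene IDs measured in mammary tumors of NeuT/ATTAC mice treated with IgG or an anti-PD-1 mAb. They are the receptors Notch1, Notch2, Notch3 and Notch4, the ligands Jag1, Jag2, Dll1 and Dll4, and the targets Hes1 and Hey1. Each was found as the 1 gene ID that carries its symbol in the GRCm38 annotation. This lookup uses no measured value, although the members were chosen with earlier results of these data known.

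Notch signaling passes between neighboring cells. A ligand of the Jagged or Delta-like family on one cell binds a Notch receptor on the next, and pulling on the ligand exposes the receptor to cleavage by Adam10 and then by γ-secretase. The freed intracellular domain enters the nucleus, joins the DNA-binding protein Rbpj and a Mastermind coactivator, and switches on genes such as Hes1 and Hey1, which encode transcriptional repressors. In the mammary gland the pathway takes part in luminal cell fate, and in tumor vessels Dll4, Notch1 and Notch4 act in endothelial cells and Notch3 in pericytes and smooth muscle.

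All mice carried MMTV-NeuT, which places activated Erbb2 under a promoter active in mammary epithelium, and FAT-ATTAC, a transgene through which AP20187 ablates adipose tissue and leaves a fibrotic mammary gland. FAT-ATTAC came from a C57BL/6 background and was crossed into FVB. In both groups AP20187 was given at 0.4 mg/kg starting at 6 weeks, described as biweekly in the sample labels and as triweekly in the study's methods, so there was no group without fibrosis. Antibody injections of 100 μg, 2 times per week, began at 8 weeks of age, with isotype-matched IgG in 1 group and anti-PD-1 mAb in the other, and each group has 3 tumor RNAseq libraries. A legend of the study describes tumor RNA as pooled within a group before sequencing, and whether each library holds 1 tumor or a pool could not be settled from the sources used here. The libraries are called tumors in what follows, and the p-values measure the spread between these libraries, which may be technical in part.

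Values are FPKM (fragments scaled by exon length and library size), so levels can be compared between genes as well as between tumors. Whole reads recovered from the FPKM summed to between 21320856 and 24172627 per tumor. Values that did not resolve into whole reads were left out of this sum. The tumors expressed the luminal epithelial markers at a summed 2185 to 3997 FPKM, macrophage markers at 184 to 387 FPKM and fibroblast markers at 68.3 to 289 FPKM. T cell markers reached at most 3.18 FPKM and adipocyte markers at most 2.18 FPKM in sum. Of 12 marker lists, 11 had summed levels that overlapped between the groups. The luminal list did not, with 2185 to 3069 FPKM in IgG tumors and 3114 to 3997 FPKM in anti-PD-1 tumors. Of its 8 markers, 5 had higher means with anti-PD-1 and 3 (Krt19, Cdh1 and Elf5) lower means. Skeletal muscle markers were high in IgG replicate 2 (109 FPKM) and anti-PD-1 replicates 1 and 2 (62.5 and 115 FPKM) and at or below 3.77 FPKM in the other tumors. In bulk tumor RNA, fewer cells of a type and less RNA per cell cannot be told apart.

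The sequences upstream of the transcription start are shown for the receptor and the ligand with the smallest p-values, Notch1 and Jag1, and for Notch3, the most abundant receptor, for comparison. They are RefSeq promoter sequences on GRCm38.p6, read 5′ to 3′ on the gene's own strand, which is the minus strand for all 3 genes. Capitals mark GC boxes, the letters GGGCGG or their reverse complement CCGCCC.
Notch1, chr2:26503825-26504072: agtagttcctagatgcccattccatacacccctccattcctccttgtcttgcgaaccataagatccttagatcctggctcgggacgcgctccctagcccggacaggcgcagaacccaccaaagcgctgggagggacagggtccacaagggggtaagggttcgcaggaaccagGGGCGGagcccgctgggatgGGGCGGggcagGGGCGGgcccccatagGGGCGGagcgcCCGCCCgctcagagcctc
Notch3, chr17:32166891-32167140: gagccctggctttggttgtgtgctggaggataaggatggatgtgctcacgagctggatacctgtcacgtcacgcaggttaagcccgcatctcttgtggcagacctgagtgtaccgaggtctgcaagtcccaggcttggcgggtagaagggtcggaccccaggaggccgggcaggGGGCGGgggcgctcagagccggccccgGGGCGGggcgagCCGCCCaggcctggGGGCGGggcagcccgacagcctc
Jag1, chr2:137116645-137116770: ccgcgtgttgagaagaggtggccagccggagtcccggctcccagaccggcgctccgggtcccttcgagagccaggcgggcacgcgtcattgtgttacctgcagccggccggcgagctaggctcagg
The Notch1 stretch ends at the first exon of the main Notch1 transcript and lies in an intron of a longer one. The Jag1 stretch is shorter, at 126 bases, because the RefSeq start lies inside the first annotated exon and exonic bases were left out. Within the 250 bases upstream of the start, 5 of the 8 members with a RefSeq promoter (Notch1, Notch2, Notch3, Jag2 and Dll4) held a GC box, against 32.7% of 32851 mouse promoter windows. The core letters bound by Rbpj, TGGGAA or TTCCCA, were in 0 of the 8 and in 21.6% of all windows, which says only that these letters are not in these windows. Jag1 held neither the GC box nor the Rbpj core in that window.

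Between the groups, Notch1 was lower and Jag1 was higher in every anti-PD-1 tumor than in every IgG tumor, while the other 8 members overlapped. Notch1 averaged 3.07-fold less FPKM and Jag1 1.91-fold more with anti-PD-1. Both had an unadjusted p under 0.05 by limma on log2(FPKM + 1), and no member passed after Benjamini-Hochberg adjustment over the 15069 genes tested. At the unadjusted threshold 12.3% of all tested genes were called (6.22% higher and 6.05% lower in anti-PD-1), and 0.0% at an adjusted p under 0.05 (1 gene, none of the members, with limma's voom on the recovered reads). Groups without overlap occurred in 18.1% of tested genes (9.3% higher and 8.75% lower in anti-PD-1), so that 2 of 10 members is close to the background on either count. The median log2 fold change of the members was -0.06, against 0.01 over all tested genes, and 6 of 10 members had a lower mean with anti-PD-1, against 49.2% of all tested genes.

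**Figure D1:**
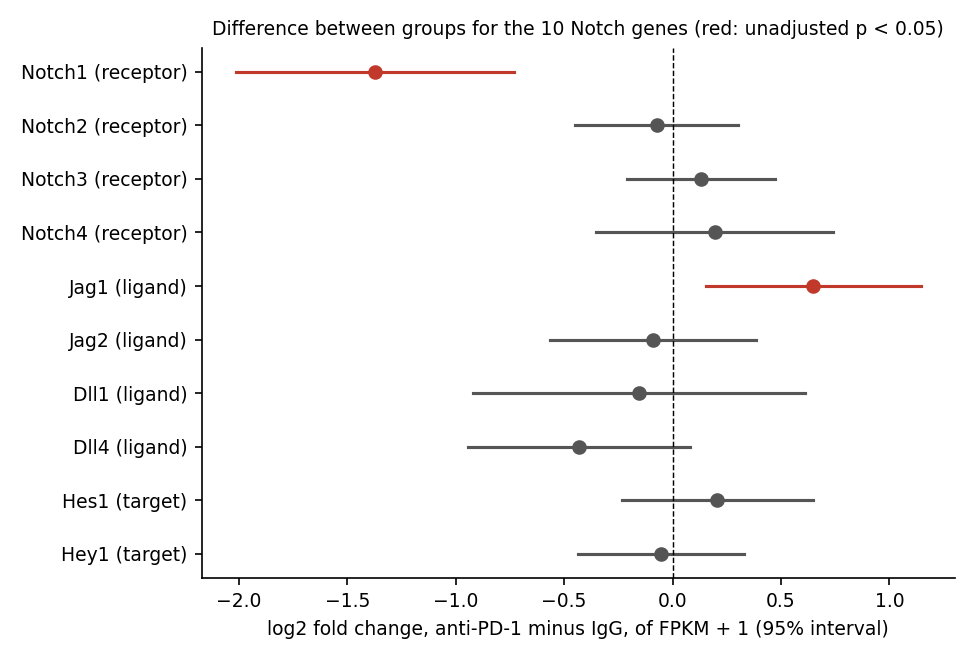
Log2 fold change of FPKM + 1 (anti-PD-1 minus IgG, horizontal axis) for the 10 Notch genes, with bars for the 95% interval and red for an unadjusted p under 0.05. The interval excludes 0 for Notch1 (-2.01 to -0.73) and Jag1 (0.16 to 1.14) and spans 0 for the other 8.

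Notch1 (ENSMUSG00000026923, chromosome 2, 26457903 to 26516663, minus strand) is the receptor best known from T cell development and from tip and stalk cell choice in vessels. It measured 7.13, 11.4 and 13.4 FPKM with IgG and 3.13, 2.57 and 4.70 FPKM with anti-PD-1, in the order of replicates 1 to 3, as are all values that follow. The lowest IgG tumor stood above the highest anti-PD-1 tumor, and the spread within the IgG group was wide. The means were 10.7 ± 3.21 and 3.47 ± 1.10 FPKM (SD, n = 3 each). On the log2 scale the difference was -1.37 (SE 0.27, 95% interval -2.01 to -0.73). Limma gave p = 0.00140 and adjusted p = 0.344, and the exact two-sided permutation test gave p = 0.1, the smallest that 3 tumors against 3 can give. Whichever tumor was left out, the log2 fold change stayed between -1.61 and -1.20 and the limma p between 0.000533 and 0.00639. The reads behind these values were 2252, 3932 and 4704 in the IgG tumors and 1144, 893 and 1598 in the anti-PD-1 tumors, so that counting error was small beside the spread between tumors.

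The difference was not shared by the genes beside Notch1. Among the 14 tested genes within 150 kb, a window chosen after the values were seen, log2 fold changes ran from -0.45 to 0.30 and the smallest limma p was 0.146. Over chromosome 2 as a whole the median of 1185 tested genes was -0.05. Exons of 2 genes on the opposite strand, 0610009E02Rik and Gm13568, overlap Notch1, and whether the counting used strand is not given in the sources used here, but they reached at most 0.727 and 0.202 FPKM. T cell markers, the list of a cell type in which Notch1 acts, summed to 1.36 to 3.18 FPKM in IgG tumors and 0.443 to 1.63 FPKM in anti-PD-1 tumors. All 6 of them were under the mean of 0.5 FPKM needed for a test, and 3 were at 0 in at least 1 tumor. Endothelial markers summed to 20.7 to 29.6 FPKM and 14.5 to 27.0 FPKM, and the part of either cell type in the Notch1 values was not tested.

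**Figure D2:**
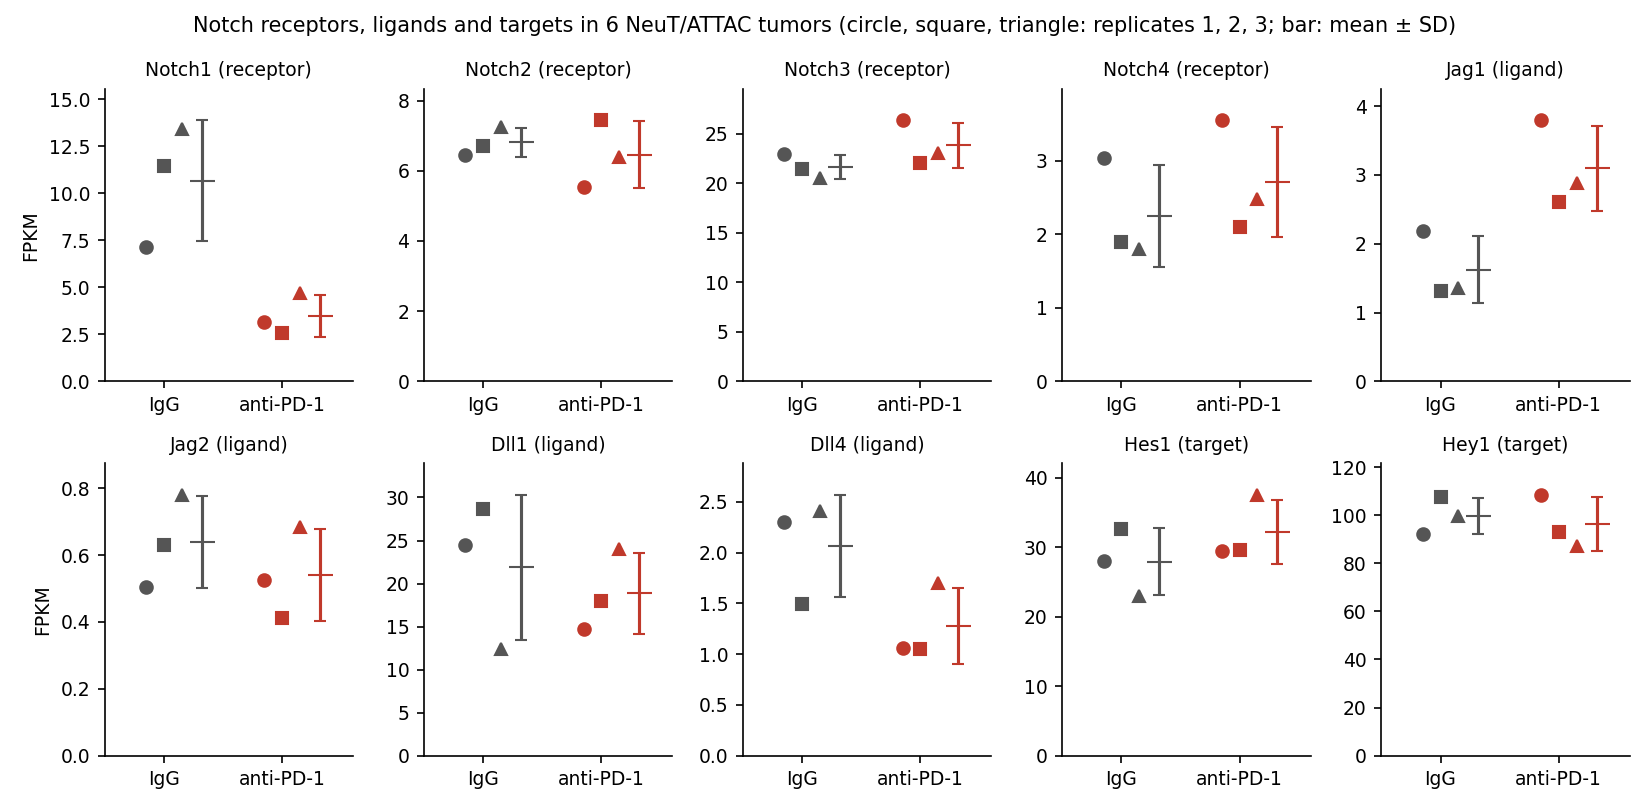
FPKM of each of the 10 Notch genes (vertical axis from 0, with a scale of its own in each panel) in 3 IgG (gray) and 3 anti-PD-1 (red) tumors, with symbols for replicate numbers and a bar for the mean ± SD. The groups are separate for Notch1 (7.13 to 13.4 against 2.57 to 4.70 FPKM) and Jag1 (1.32 to 2.18 against 2.61 to 3.79 FPKM) and overlap in the other panels.

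Notch2 (ENSMUSG00000027878, chromosome 3, 98013527 to 98150361, plus strand), a receptor expressed in many epithelia and in B cells, was steady. It measured 6.46, 6.71 and 7.26 FPKM in the IgG tumors and 5.55, 7.44 and 6.39 FPKM in the anti-PD-1 tumors. The IgG tumors all lay within the range of the anti-PD-1 tumors. The log2 fold change was -0.07 (SE 0.16), and its 95% interval of -0.45 to 0.30 leaves out a change of the size seen for Notch1 (adjusted p = 0.875 by limma).

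Notch3 (ENSMUSG00000038146, chromosome 17, 32120820 to 32166852, minus strand), the receptor of pericytes and vascular smooth muscle that is also made by luminal progenitors, was the most abundant of the 4 receptors in every tumor. It measured 23.0, 21.4 and 20.5 FPKM with IgG and 26.3, 22.0 and 23.1 FPKM with anti-PD-1. The groups overlapped, with anti-PD-1 replicate 2 below IgG replicate 1. Its log2 fold change was 0.13 (SE 0.15, 95% interval -0.21 to 0.47, adjusted p = 0.739 by limma). It ran from 0.060 to 0.19 as single tumors were left out, and was 0.071 under quantile normalization. Pericyte and smooth muscle markers overlapped too, at 45.2 to 64.0 FPKM and 46.0 to 76.5 FPKM. The Notch3 values did not resolve into whole reads, so no read count is given for it.

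Notch4 (ENSMUSG00000015468, chromosome 17, 34564268 to 34588503, plus strand), a receptor largely restricted to endothelium, was the lowest of the receptors in 5 of the 6 tumors. In anti-PD-1 replicate 1 it stood above Notch1. It measured 3.04, 1.90 and 1.80 FPKM with IgG and 3.55, 2.10 and 2.48 FPKM with anti-PD-1. Replicate 1 was the highest of each group, and the groups overlapped. The log2 fold change of 0.19 (SE 0.23, 95% interval -0.35 to 0.74, adjusted p = 0.760 by limma) rested on 357 to 734 reads per tumor, and it ran from 0.038 without anti-PD-1 replicate 1 to 0.36 without IgG replicate 1.

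Jag1 (ENSMUSG00000027276, chromosome 2, 137081456 to 137116644, minus strand) is a Jagged ligand made by epithelial, stromal and endothelial cells. It measured 2.18, 1.32 and 1.36 FPKM in the IgG tumors and 3.79, 2.61 and 2.89 FPKM in the anti-PD-1 tumors. Replicate 1 was the highest in both groups, and no anti-PD-1 tumor fell into the IgG range. The means were 1.62 ± 0.486 and 3.10 ± 0.619 FPKM (SD, n = 3 each). The log2 fold change was 0.65 (SE 0.21, 95% interval 0.16 to 1.14), with p = 0.0168 and adjusted p = 0.355 by limma, and 0.1 in the exact permutation test. On the FPKM + 1 scale this understates the change of a gene at this level.

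Jag1 depended on single tumors more than Notch1 did. As single tumors were left out, limma's unadjusted p ran from 0.00920 to 0.0631. It exceeded 0.05 in the absence of IgG replicate 2, IgG replicate 3 or anti-PD-1 replicate 1, at log2 fold changes of 0.57, 0.58 and 0.53. The reads behind Jag1 numbered 282, 186 and 195 with IgG and 567, 371 and 402 with anti-PD-1. The tested gene within 150 kb of Jag1, Slx4ip, had a log2 fold change of 0.25, with groups that overlapped. Luminal markers were the list whose sum was also higher in every anti-PD-1 tumor. They came to 3069, 2755 and 2185 FPKM with IgG and 3114, 3209 and 3997 FPKM with anti-PD-1. Means were higher for 5 of 8 and lower for Krt19, Cdh1 and Elf5. Of the 5, only Epcam was higher in every anti-PD-1 tumor. Krt19 was lower in every anti-PD-1 tumor (log2 fold change -2.03, unadjusted p = 0.0471 by limma). Macrophage markers had higher means in 6 of 6 cases, beside 7651 of 15069 tested genes, and their sums overlapped between the groups. The part of either cell type in the Jag1 values was not tested.

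Jag2 (ENSMUSG00000002799, chromosome 12, 112907819 to 112929776, minus strand), the other Jagged ligand, was the least expressed member. It measured 0.505, 0.630 and 0.781 FPKM with IgG and 0.526, 0.412 and 0.685 FPKM with anti-PD-1, on 70 to 134 reads. This was a log2 fold change of -0.09 (SE 0.20, 95% interval -0.56 to 0.39, adjusted p = 0.881 by limma), and at this depth a small change of Jag2 was not detectable. Adding 1 to values this low narrows both the change and its interval, and with 0.1 added the value was -0.21 (SE 0.48) and with voom -0.25 (SE 0.36).

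Dll1 (ENSMUSG00000014773, chromosome 17, 15367354 to 15376872, minus strand), a Delta-like ligand found on mammary stem cells, was the most abundant ligand in every tumor. On the log2(FPKM + 1) scale its difference had the widest error of the 10 members. With 0.1 added in place of 1, or with voom, the error of Jag2 was wider than that of Dll1. It measured 24.5, 28.7 and 12.4 FPKM with IgG and 14.7, 17.9 and 24.0 FPKM with anti-PD-1. The lowest and the highest value of all 6 tumors were both in the IgG group. The groups differed by -0.15 on the log2 scale (SE 0.33, 95% interval -0.92 to 0.61, adjusted p = 0.873 by limma), and it ran from -0.50 to 0.07 as single tumors were left out.

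Dll4 (ENSMUSG00000027314, chromosome 2, 119325784 to 119335962, plus strand), the ligand of endothelial tip cells, measured 2.30, 1.49 and 2.41 FPKM with IgG and 1.06, 1.05 and 1.71 FPKM with anti-PD-1. Only IgG replicate 2 and anti-PD-1 replicate 3 crossed over. This gave a log2 fold change of -0.43 (SE 0.22, 95% interval -0.94 to 0.08, adjusted p = 0.454 by limma). It was -0.66 (SE 0.33) with 0.1 added in place of 1 and -0.70 (SE 0.35) with voom on the recovered reads. In the absence of IgG replicate 2 it was -0.58, and limma's unadjusted p was 0.0428 in place of 0.0867. The opposite-strand gene Gm14207, whose exons overlap Dll4, measured 0.599, 0.746 and 1.81 FPKM with IgG and 0.370, 0.117 and 0.516 FPKM with anti-PD-1. Reads of the pair cannot be told apart if strand was not used. The 8 endothelial markers had lower means with anti-PD-1 in 8 of 8 cases, beside 49.2% of all tested genes. None of these had an unadjusted p under 0.05 by limma, and their median log2 fold change was -0.19. They summed to 29.6, 20.7 and 26.0 FPKM with IgG and 27.0, 14.5 and 20.4 FPKM with anti-PD-1. Their part in the Dll4 values was not tested.

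Hes1 and Hey1 encode basic helix-loop-helix repressors that report Notch activity in many tissues, although other pathways also drive them. Hes1 (ENSMUSG00000022528, chromosome 16, 30064384 to 30067796, plus strand) measured 28.0, 32.7 and 23.0 FPKM with IgG and 29.5, 29.6 and 37.6 FPKM with anti-PD-1. The groups overlapped, and the log2 fold change was 0.21 (SE 0.19, 95% interval -0.23 to 0.65, adjusted p = 0.672 by limma). It was 0.080 when IgG replicate 3 was left out, 0.32 when IgG replicate 2 was, and 0.12 under quantile normalization. Hey1 (ENSMUSG00000040289, chromosome 3, 8663359 to 8667256, minus strand) was the most abundant member in every tumor, at 92.3, 107 and 99.5 FPKM with IgG and 109, 93.2 and 87.0 FPKM with anti-PD-1. The highest and the lowest Hey1 tumor were both in the anti-PD-1 group. Its log2 fold change was -0.05 (SE 0.16, 95% interval -0.44 to 0.33, adjusted p = 0.913 by limma), and it was -0.20 under quantile normalization. Neither target thus had a detectable difference in the tumors in which Notch1 was lower and Jag1 higher, and the intervals allow changes of up to 0.65 for Hes1 and down to -0.44 for Hey1 on the log2 scale.

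Set side by side, FPKM levels ran over a wide range. Averaged over the 6 tumors, Hey1 (98.0 FPKM) was followed by Hes1 (30.1), Notch3 (22.7), Dll1 (20.4), Notch1 (7.06), Notch2 (6.63), Notch4 (2.48), Jag1 (2.36), Dll4 (1.67) and Jag2 (0.590). Hey1 exceeded Hes1, Notch2 exceeded Notch4 and Dll4 exceeded Jag2 in 6 of 6 tumors with no overlap of their ranges. Hes1 exceeded Notch3 in 6 of 6 tumors, although the ranges over tumors overlapped. Dll1 exceeded Notch1 in 5 of 6 tumors, with overlapping ranges, and lay below it in IgG replicate 3. The other neighbors that did not keep one order were Notch3 and Dll1, Notch1 and Notch2, Notch4 and Jag1, and Jag1 and Dll4, each pair with the upper gene ahead in 3 of 6 tumors.

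Some of these reversals followed the groups. Notch1 exceeded Notch2 in each IgG tumor, with a ratio of FPKM of 1.10, 1.70 and 1.85, and lay below it in each anti-PD-1 tumor, with ratios of 0.565, 0.346 and 0.735. Jag1 lay below Dll4 in each IgG tumor, at ratios of 0.946, 0.885 and 0.563, and above it in each anti-PD-1 tumor, at 3.57, 2.48 and 1.69. Notch4 lay above Jag1 in each IgG tumor and below it in each anti-PD-1 tumor. These pairs were picked after the values were seen and restate the differences of their genes within each tumor.

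The make-up of the receptor pool is shown by shares of the summed FPKM. The 4 receptors summed to 39.6, 41.5 and 43.0 FPKM with IgG and to 38.6, 34.2 and 36.6 FPKM with anti-PD-1. Notch1 made up 18.0%, 27.6% and 31.2% of the receptor sum in the IgG tumors and 8.12%, 7.53% and 12.8% in the anti-PD-1 tumors. Notch3 made up the larger part in 5 of the 6 tumors and 47.7% in IgG replicate 3. Its share was 47.7% to 58.0% with IgG and 63.0% to 68.3% with anti-PD-1, while its own FPKM overlapped between the groups. Among ligands, Dll1 held 73.2% to 89.3% of the sum in IgG tumors and 73.2% to 82.0% in anti-PD-1 tumors. Jag1 held 7.39%, 4.11% and 7.99% with IgG and 18.9%, 11.9% and 9.87% with anti-PD-1. The ligand sum overlapped between the groups, at 16.99 to 32.1 FPKM and 20.1 to 29.2 FPKM.

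**Figure D3:**
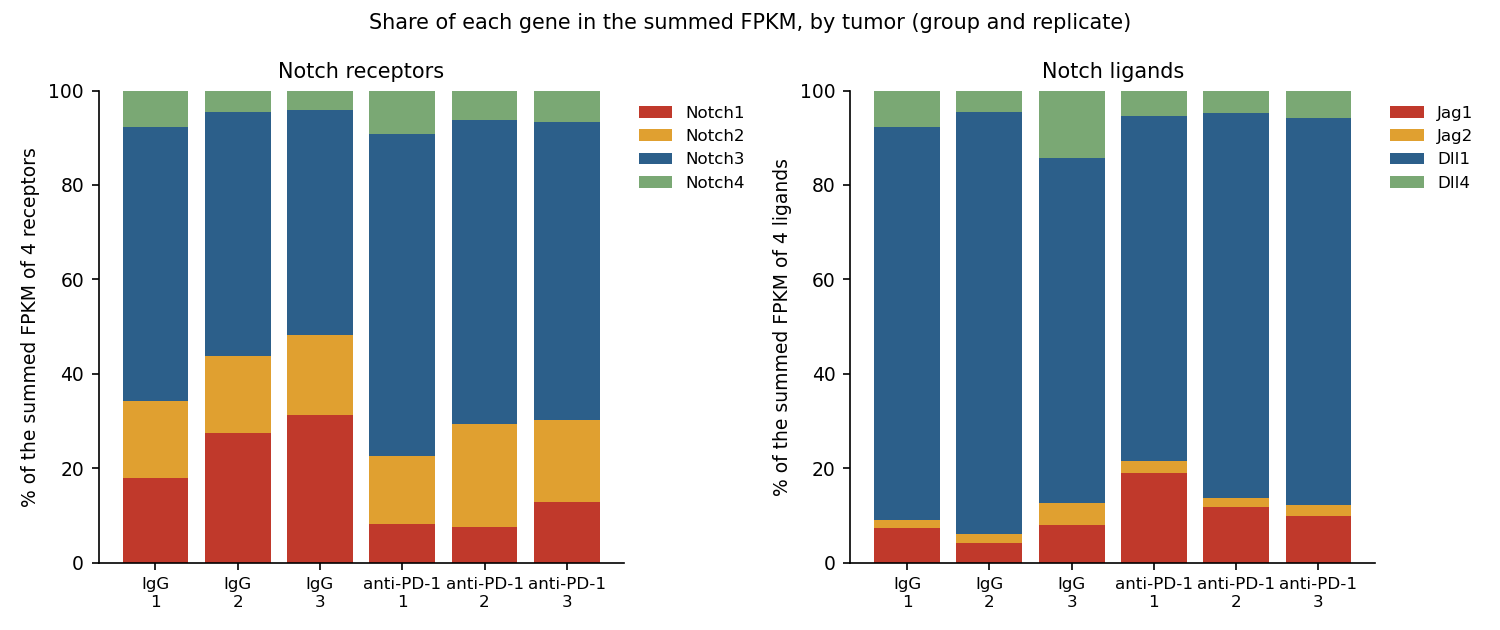
Share of each gene in the summed FPKM of the 4 receptors (left) and the 4 ligands (right), in percent, with 1 stacked bar per tumor. Notch1 takes 18.0% to 31.2% of the receptor sum in IgG tumors and 7.53% to 12.8% in anti-PD-1 tumors, and Dll1 takes at least 73.2% of the ligand sum in each tumor.

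The rest of the pathway was followed through 55 further genes, from the enzymes that cut the receptors to the nuclear complex and other targets. Of these, 45 were expressed highly enough to be tested, and 1 was higher and 5 lower in anti-PD-1 tumors at an unadjusted p under 0.05, beside 6.22% and 6.05% of all tested genes. The total of 6 of 45 is close to the background of 12.3%. None passed the adjustment by limma, with adjusted p between 0.365 and 0.986. The groups did not overlap for 2 higher and 9 lower genes, beside 9.3% and 8.75% of all tested genes. The means of 32 of the 45 were lower with anti-PD-1, beside 49.2% of all tested genes, and the median log2 fold change was -0.08.

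Among the 10 genes of receptor cleavage, which include γ-secretase, 1 was higher and 0 were lower at p under 0.05. This was Psenen, a γ-secretase subunit, at 53.8, 46.9 and 40.1 FPKM with IgG and 57.5, 75.5 and 66.8 FPKM with anti-PD-1. Its log2 fold change was 0.50 (SE 0.18, adjusted p = 0.371 by limma). Adam10, which makes the first cut, measured 23.9, 37.4 and 31.3 FPKM with IgG and 26.8, 20.5 and 15.2 FPKM with anti-PD-1, at a log2 fold change of -0.56 (adjusted p = 0.424). As single tumors were left out it ran from -0.75 to -0.35, and limma's unadjusted p came under 0.05 in the absence of replicate 1 of either group and under quantile normalization. None of the 5 receptor-glycosylating enzymes, which tune the choice of ligand, had an unadjusted p under 0.05 by limma. The Fringe genes Lfng, Mfng and Rfng had log2 fold changes of -0.35, -0.14 and -0.01 (adjusted p = 0.636, 0.819 and 0.986 by limma), and that of Rfng turned to 0.0086 under quantile normalization. Lfng ran from -0.51 without anti-PD-1 replicate 3 to -0.072 without anti-PD-1 replicate 2.

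Of 3 tested genes for ligand endocytosis, the ubiquitin ligase Mib2 was lower, at 8.36, 11.3 and 12.1 FPKM with IgG and 8.21, 7.20 and 7.04 FPKM with anti-PD-1. Its log2 fold change was -0.44 (SE 0.18, adjusted p = 0.397 by limma). In the nuclear complex of 7 genes, the coactivator Maml2 was lower, at 4.05, 9.25 and 6.00 FPKM against 3.51, 3.29 and 2.80 FPKM, with a log2 fold change of -0.77 (SE 0.27, adjusted p = 0.365 by limma). Rbpj itself overlapped widely between the groups, at 3.26, 4.53 and 2.29 FPKM with IgG and 4.77, 7.93 and 2.84 FPKM with anti-PD-1. Its log2 fold change was 0.45 (adjusted p = 0.612 by limma). It ran from 0.15 without anti-PD-1 replicate 2 to 0.76 without anti-PD-1 replicate 3, where limma's unadjusted p came under 0.05. The coactivator Maml1 was at -0.13 (adjusted p = 0.811 by limma), or -0.28 to -0.043 as single tumors were left out.

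The 9 corepressors, which hold Notch targets silent when no intracellular domain is bound, held 3 of the 5 lower genes. Over all tested genes, 6.05% were lower at an unadjusted p under 0.05 by limma. Spen lies on chromosome 4 and Tle3 on chromosome 9, where 83.6% and 82.3% of tested genes had lower means with anti-PD-1. Spen measured 2.47, 3.88 and 5.57 FPKM with IgG and 1.91, 2.01 and 1.84 FPKM with anti-PD-1, a log2 fold change of -0.72 (SE 0.25, adjusted p = 0.365 by limma). Tle3 measured 7.53, 12.1 and 12.7 FPKM with IgG and 7.55, 6.45 and 6.39 FPKM with anti-PD-1, a log2 fold change of -0.57 (SE 0.22, adjusted p = 0.380 by limma). The groups did not overlap for Spen and did for Tle3, through replicate 1 of each. Each of the 6 genes of the wider list that were called lost its call in 3 to 5 of 6 cases as single tumors were left out. The 8 genes of receptor turnover and inhibition had a median of 0.00 and 0 genes at p under 0.05 by limma. The groups did not overlap for 2 of them, Numb and Itch, named here after their values were seen, both lower with anti-PD-1. Over all tested genes, 8.75% were lower without overlap. Among the other roles, Aph1c, Snw1 and Cir1 were also lower without overlap and without a call. The log2 fold changes of Numb and Itch were -0.46 and -0.29 (adjusted p = 0.414 and 0.434 by limma).

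Of the 8 other targets, 3 could be tested, and 0 of them had a limma p under 0.05. Hes6 was 17.8, 15.99 and 13.8 FPKM with IgG and 19.0, 19.5 and 18.7 FPKM with anti-PD-1. Its groups did not overlap, at a log2 fold change of 0.26 (adjusted p = 0.514 by limma), or 0.17 to 0.34 as single tumors were left out. Nrarp, a feedback inhibitor induced by Notch, was 3.44, 1.38 and 1.16 FPKM with IgG and 2.97, 3.19 and 3.52 FPKM with anti-PD-1. Its log2 fold change of 0.57 (adjusted p = 0.453 by limma) became 0.90 without IgG replicate 1, the highest of the IgG tumors, and limma's unadjusted p was then 0.00318. Heyl was at -0.04 (adjusted p = 0.960 by limma). The 10 genes too low to test were Dll3, Dlk1, Dlk2, Dner, Neurl1a, Hes2, Hes3, Hes5, Hes7 and Hey2. Hey2 reached 1.44 FPKM in IgG replicate 2, and the others at most 0.483 FPKM. Hes5 was listed at 0 in all 6 tumors, where 3 reads would have been at least 0.0860 FPKM.

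**Figure D4:**
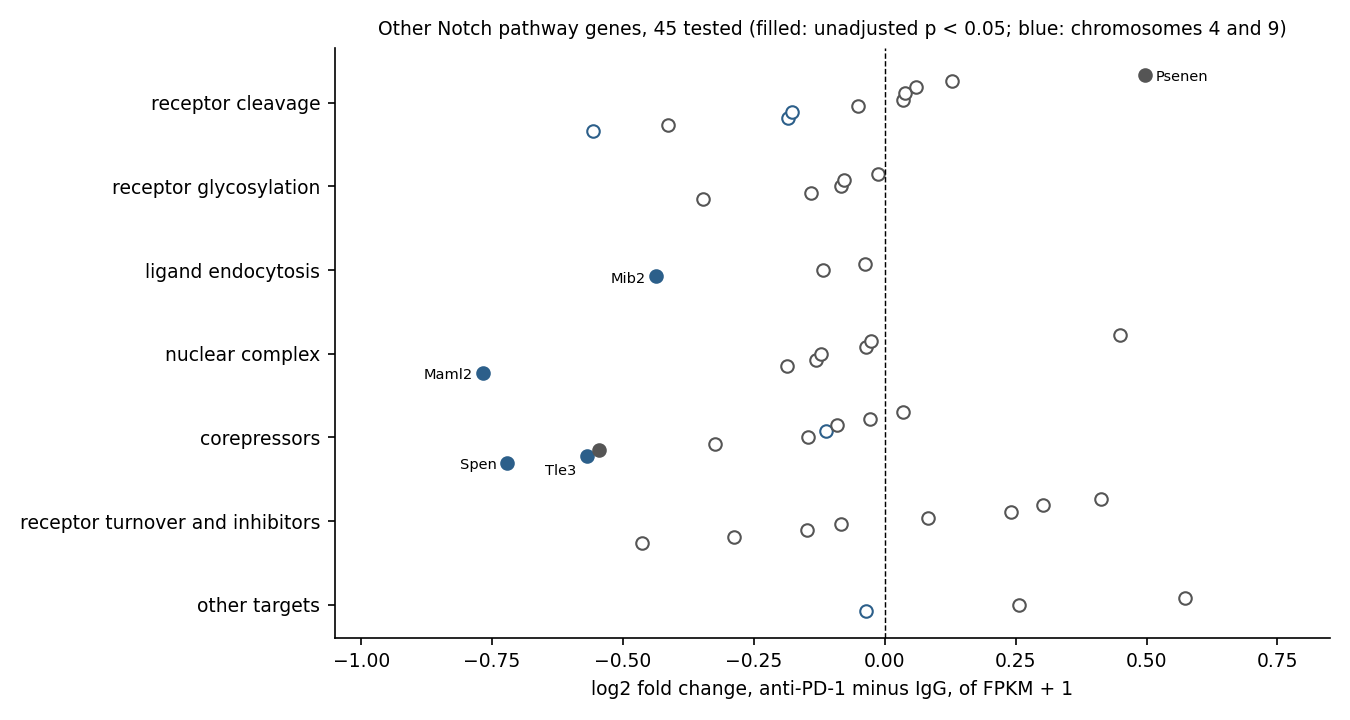
Log2 fold change of FPKM + 1 (anti-PD-1 minus IgG, horizontal axis) for the 45 tested genes of the wider Notch list, by role, with filled circles for an unadjusted p under 0.05 (5 of the 6 labelled) and blue for genes on chromosomes 4 and 9. Each of the 9 blue genes lies below 0 (Heyl turns to 0.0059 under quantile normalization), and 4 of the 5 filled circles below 0 are blue.

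Of the 5 genes of the wider list that were lower at an unadjusted p under 0.05, 4 lie on chromosomes 4 and 9. On these chromosomes the tested genes as a whole were lower with anti-PD-1, by a median of -0.40 (926 genes, 83.6% with lower means) and -0.36 (798 genes, 82.3%) on the log2 scale. Of the 45 tested genes, 9 lie on these chromosomes, and all 9 had lower means with anti-PD-1 (median -0.44), Heyl not so under quantile normalization. The 4 called genes were Mib2 and Spen on chromosome 4 and Maml2 and Tle3 on chromosome 9. Of the 36 tested genes elsewhere, 1 was higher and 1 lower at an unadjusted p under 0.05, 23 had lower means, and the median was -0.04. These 36 held 5 of the 9 lower genes whose groups did not overlap. The part of the 2 chromosomes in these values was not tested. None of the 10 members lies on either chromosome.

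Under the 8 other settings that kept all tumors, and without each tumor in turn, Notch1 and Jag1 kept their direction. Dll4 did so under 7 such settings, since it was not tested with the filter at 2 FPKM, and without each tumor in turn. Over the 8 settings Notch1 ran from -1.61 to -1.36 (adjusted p 0.312 to 0.556) and Jag1 from 0.65 to 0.97 (adjusted p 0.335 to 0.590).

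**Figure D5:**
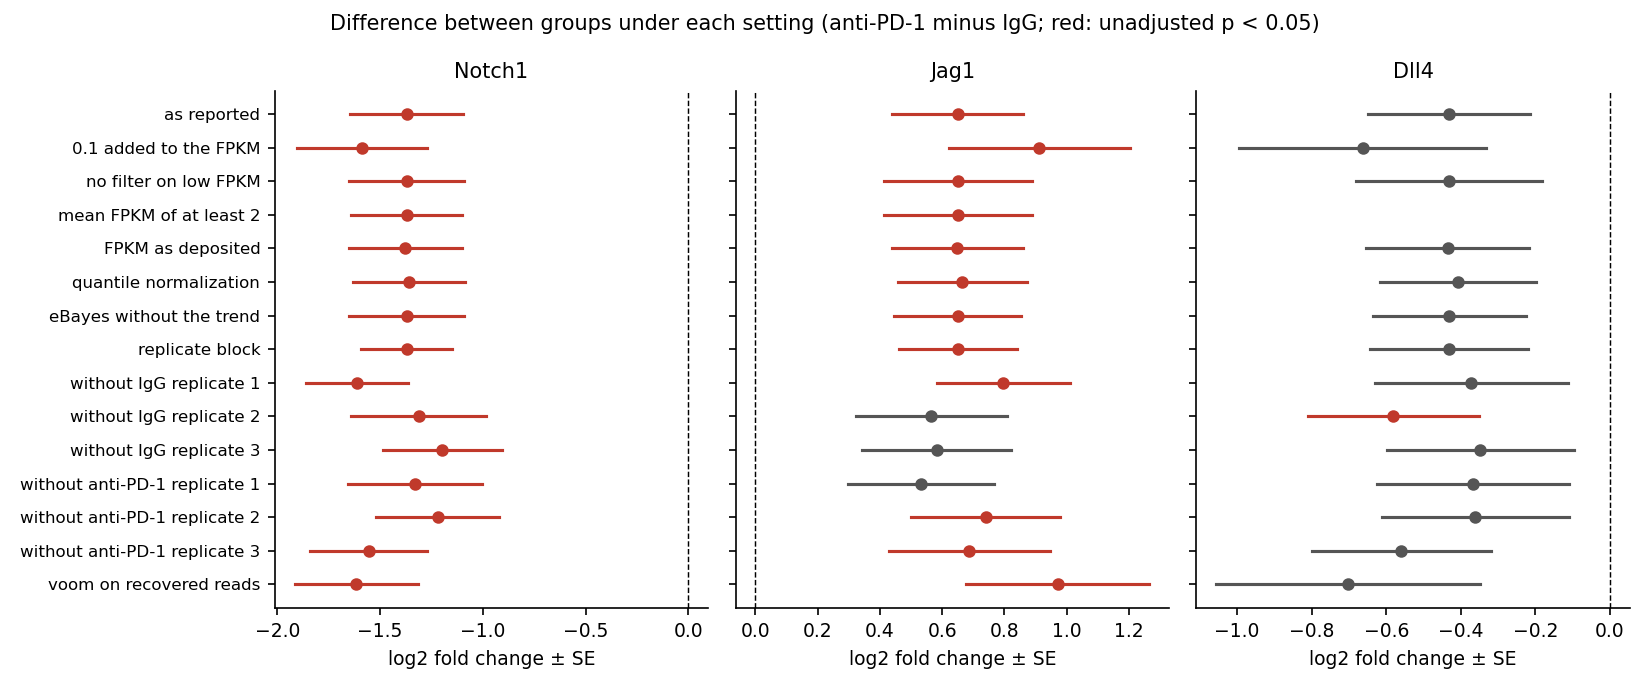
Log2 fold change ± SE (anti-PD-1 minus IgG, horizontal axes) of Notch1, Jag1 and Dll4 under each setting, with red for an unadjusted p under 0.05. Notch1 is red throughout, from -1.61 to -1.20, Jag1 turns gray without IgG replicate 2, IgG replicate 3 or anti-PD-1 replicate 1, and Dll4 is red only without IgG replicate 2.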

How the data were processed

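RNAseq values of 3 IgG and 3 anti-PD-1 tumor libraries were used, grouped by the sample labels. The authors deposited FPKM per gene for each tumor. The authors' processing notes name FastQC 0.11.9, cutadapt 3.5, Bowtie2 2.4.1, RSEM 1.3.1, DESeq2 1.36.0 and R 4.1 on mm10. How the FPKM was made is not given in the sources used here. Gene IDs were matched to GENCODE M21 on GRCm38, and 54495 of 54532 matched. FPKM times merged exon length gave whole reads, within 0.1, for 97.0% to 97.3% of detected values in each tumor, from which depth was taken. Floors of reads cover counting error only, and the 95% intervals of fold changes come from limma's standard error between libraries.

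FPKM was divided by median-of-ratios factors (1.00 to 1.01), 1 was added and log2 taken. Genes averaging 0.5 FPKM or more over the tumors went into limma 3.58.1, run in R 4.3.3 (eBayes with an intensity trend, two-sided, Benjamini-Hochberg over 15069 genes), beside exact permutation tests for the members. On simulated reads for 14185 genes, 200 of them changed by a log2 fold of 2, 177 (88.5%) were recovered, with 17 false calls. The simulation gave every gene the same dispersion and changed only genes with many reads. Its log2 fold was larger than that of any member, so this rate does not give the power for the members. Python 3.11.15 with pandas 2.3.3 and scipy 1.17.1 was used for the rest.

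All 10 members were named. Of the wider list, genes with an unadjusted p under 0.05 were named, and Rbpj, Maml1, Adam10, the Fringe genes, Hes5, Hes6, Hey2, Heyl and Nrarp whatever their result. Some genes that this rule names are not reported here. The members and lists were chosen with earlier results of these data known. Alternatives were 0.1 added in place of 1, no filter, a filter at a mean of 2 FPKM, the deposited FPKM without factors, quantile normalization, no intensity trend, a replicate block, limma's voom on the recovered reads, and leaving out each tumor.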

Additional observations from a re-analysis of the deposited data

How the results depend on the processing

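Over 8 settings that kept all tumors, 77 of 77 values of the members kept their direction and their side of the 0.05 threshold of limma's unadjusted p (Jag2 and Dll4 were not tested with the filter at 2 FPKM, nor Notch3 in voom). Of the genes named from the wider list, Rfng (0.0086) and Heyl (0.0059) turned from lower to higher under quantile normalization. With the replicate block the members called were still Notch1 and Jag1, and the wider list had 0 higher and 3 lower genes in place of 1 and 5. The labels do not say whether replicate numbers pair the tumors. In their deviations from the group means, same-numbered tumors correlated at -0.164, 0.00508 and 0.194. Differently numbered tumors correlated at -0.262 to 0.235, and such correlations cannot settle whether the tumors were paired. Quantile normalization also left 0 higher genes of the wider list. Genes past an adjusted p of 0.05 by limma numbered 1 with voom and 0 to 12 as single tumors were left out, with 12 without IgG replicate 1. Leaving out tumors moved the genes higher at p under 0.05 to 498 to 1268 (498 without IgG replicate 2) and the lower ones to 459 to 1419 (1419 without IgG replicate 1, 459 when IgG replicate 2 was dropped, 589 for anti-PD-1 replicate 2 and 499 for anti-PD-1 replicate 3). The members called ran from 0 to 1 higher (0 without IgG replicate 2, IgG replicate 3 or anti-PD-1 replicate 1) and from 1 to 2 lower (2 without IgG replicate 2, which added Dll4). The wider list ran from 0 to 2 higher (2 without IgG replicate 1, and 0 without IgG replicate 2, IgG replicate 3 or anti-PD-1 replicate 2) and from 0 to 7 lower (0 without IgG replicate 2 or anti-PD-1 replicate 3, 1 when IgG replicate 3 was dropped and 2 for anti-PD-1 replicate 2). Among the members and the genes named from the wider list, values that crossed 0 as a tumor was left out were Notch2 (-0.16 to 0.018), Dll1 (-0.50 to 0.066), Hey1 (-0.14 to 0.021), Mfng (-0.29 to 0.00456), Rfng (-0.17 to 0.10) and Heyl (-0.12 to 0.11). The log2 fold change of Jag1 ran from 0.53 to 0.80 and that of Dll4 from -0.58 to -0.35. The cause of these changes was not tested. With 3 tumors per group the intervals were wide, as for Dll1 (-0.92 to 0.61), and Jag2 rested on as few as 70 reads.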
